A study of Danio rerio with 24 samples.

Results

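The comparison is the change in microRNA (miRNA) levels of whole zebrafish embryos between 36 and 60 hours post-fertilization (hpf), in embryos given only the solvent DMSO. Its members are the arrays whose titles name DMSO and a stage, 12 of the 24 arrays of the series: 3 of 60 hpf and 3 of 36 hpf on custom 1-colour Agilent arrays, and 3 of 60 hpf and 3 of 36 hpf on 2-colour Exiqon LNA arrays. Embryos of both stages were of the wild-type TL strain, were kept in DMSO for 1 h from 30 hpf, and gave total RNA of the whole body, with no mutation or transgene named. The design text calls the replicates biological. The labels say neither how many embryos made up a sample nor whether 1 RNA served both platforms. The remaining arrays hold embryos given the dioxin TCDD instead and share the model's estimate of the spread. They also helped set which probe stood for a name and which names were tested, and on Agilent the scaling and the floor.

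MicroRNAs are short RNAs that guide Argonaute proteins to messenger RNAs and lower their translation and stability. In zebrafish, the miR-430 family is made when the embryo's own genome switches on and clears messenger RNAs left by the mother, whereas the let-7 family, known from the timing of larval stages in Caenorhabditis elegans, accumulates late in the development of many animals. Between 36 and 60 hpf the zebrafish embryo finishes most organ shapes, hatches or prepares to hatch, and its nervous system, sense organs, gut, cartilage and blood differentiate. Many miRNAs are known from 1 tissue each, such as miR-124 from neurons, miR-122 from liver and miR-203 from skin.

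The members of 1 family differ by few bases, so the probes are shown first for some of the families described below. Each is an Agilent probe written 5′ to 3′ as the array files give it. It is complementary to the miRNA, so its left end pairs with the miRNA's 3′ end. In the miR-430 set the capitals mark the run that the 4 tested probes share, and in the untested miR-430i probe the base that differs from miR-430a, C5G counted from the probe's 5′ end.
miR-430a: cTACCCCAAcaaatagc
miR-430b: cTACCCCAActtgatagc
miR-430c: cTACCCCAAagagaagc
miR-430j: TACCCCAAtttgatagca
miR-430i: ctacGccaacaaatagc

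In the let-7 set the capitals mark bases that differ from the let-7a probe, again counted from the 5′ end: T4C and T6C in let-7b, T4C in let-7c, T4C and T13A in let-7d, C11T in let-7f and C11A in let-7g. A probe that differs by 1 base may also bind its neighbour's miRNA, and this was not tested.
let-7a: aactatacaacctactacct
let-7b: aacCaCacaacctactacc
let-7c: aacCatacaacctactacc
let-7d: aacCatacaaccAactacc
let-7f: aactatacaaTctactacctc
let-7g: aactatacaaActactacctca

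The probes of miR-9 and miR-9*, the strands of 1 hairpin, are complementary over the 12 bases in capitals, as the arms of the hairpin are.
miR-9: tcatacAGCTAGATAACCa
miR-9*: actttcGGTTATCTAGCTt

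The probes of the skin miRNAs miR-203a and miR-203b differ by 1 base, A12G from the 5′ end, over the length they share.
miR-203a: caagtggtcctaaacatt
miR-203b: caagtggtcctGaac

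Agilent values are scaled signals: a spot's processed signal divided by the 75th percentile of its array, so that 1 is the level of that percentile. Exiqon values are ratios of the embryo RNA, labelled with Hy3, over a common reference, a pool of individual RNA samples labelled with Hy5. Neither scale compares 1 miRNA with another, only 1 miRNA between embryos. On Agilent 191 to 276 of 490 probes were detected on the 6 DMSO arrays, with the lowest count on replicate 2 of 60 hpf, and 134 miRNA names were tested. On Exiqon 223 of 224 zebrafish names were tested. There 249 to 255 of 255 probes counted as above background on the DMSO arrays, so this filter removed almost no dim name. Of the 223 names, 6 belong to probes shared by a pair of miRNAs, and each counts as a name of its own in the lists. The pairs are miR-19b and miR-19c, miR-125b and miR-125c, miR-133a and miR-133b, miR-141 and miR-200a, miR-181b and miR-181c, and miR-200b and miR-200c. A change is the log2 of 60 hpf over 36 hpf ± its standard error with 3 arrays per group, and it passed at an adjusted p under 0.05 (limma, Benjamini-Hochberg over all names tested on the platform, two-sided). Precision is set by the 3 arrays per group, with a median standard error of 0.0764 on Agilent and 0.0436 on Exiqon. In whole embryos, more cells of a type and more RNA per cell cannot be told apart. In the Exiqon data the 36 hpf DMSO arrays were from a second scan and all other arrays from the first, so scan and stage cannot be told apart there.

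Most of the measurable miRNAs differed between the stages. On Agilent 108 of 134 passed, which is 80.6%: 65 were higher at 60 hpf (48.5%) and 43 lower (32.1%). On Exiqon 146 of 223 passed (65.5%), 109 higher (48.9%) and 37 lower (16.6%). All 3 arrays of 1 stage lay beyond all 3 of the other for 79.9% of names on Agilent and 73.1% on Exiqon, so a single miRNA with groups that do not overlap is the usual case in these data. Large changes were mostly upward: 33 names rose (24.6%) and 4 fell (2.99%) by at least 1 log2 unit on Agilent, and 28 rose (12.6%) and 5 fell (2.24%) on Exiqon. Every name in the downward group was a miR-430 on both platforms. Names detected on all 6 DMSO arrays of Agilent numbered 109, of which 52 were higher (47.7%) and 37 lower (33.9%). A dim name could enter the test through the stage at which it was brighter, or through the TCDD arrays, as miR-122 and miR-143 did on Agilent. Agilent counts of lists that hold such names are therefore given over the members detected on all 6 DMSO arrays. Exiqon counts are over all tested names, dim ones included. A brighter set holds 178 names whose sample channel was at least 2 times local background on all 3 arrays of a DMSO stage. Of these 134 passed, 97 higher and 37 lower, so the shares of all names given beside Exiqon lists lie below those of brighter names. Each of the 108 Agilent calls had the same sign on both slides. These are the arrays that gave the calls, so the agreement is no separate support.

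Of the 132 names tested on both platforms, 58 were higher on both (43.9%), 25 lower on both (18.9%) and 4 passed in opposite directions (3.03%). Over these names, which share arrays and are no replicates, Pearson's r between the platforms' changes was 0.873 and Spearman's rho 0.878, and r was 0.840 without the miR-430 members. Agilent changes were the larger for 44 of the 58 higher names, with a median size of 1.02 on Agilent and 0.823 on Exiqon. They were the larger for 25 of the 25 lower names, with medians of 0.494 and 0.184. The lower names include miR-19b, whose Agilent fall is uncertain because its probe was saturated. Arrays of 1 stage correlated at 0.991 to 0.999 on Agilent and 0.958 to 0.987 on Exiqon. Between stages the Agilent correlation was 0.872 to 0.910. The Exiqon log ratios of tested names correlated at -0.551 to -0.516 between stages, and those of all Exiqon probes at 0.145 to 0.207. Agilent values are signal levels and Exiqon values ratios over a common reference, so their correlations cannot be set against each other. The Exiqon direction follows the dyes that the labels state.

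**Figure D1:**
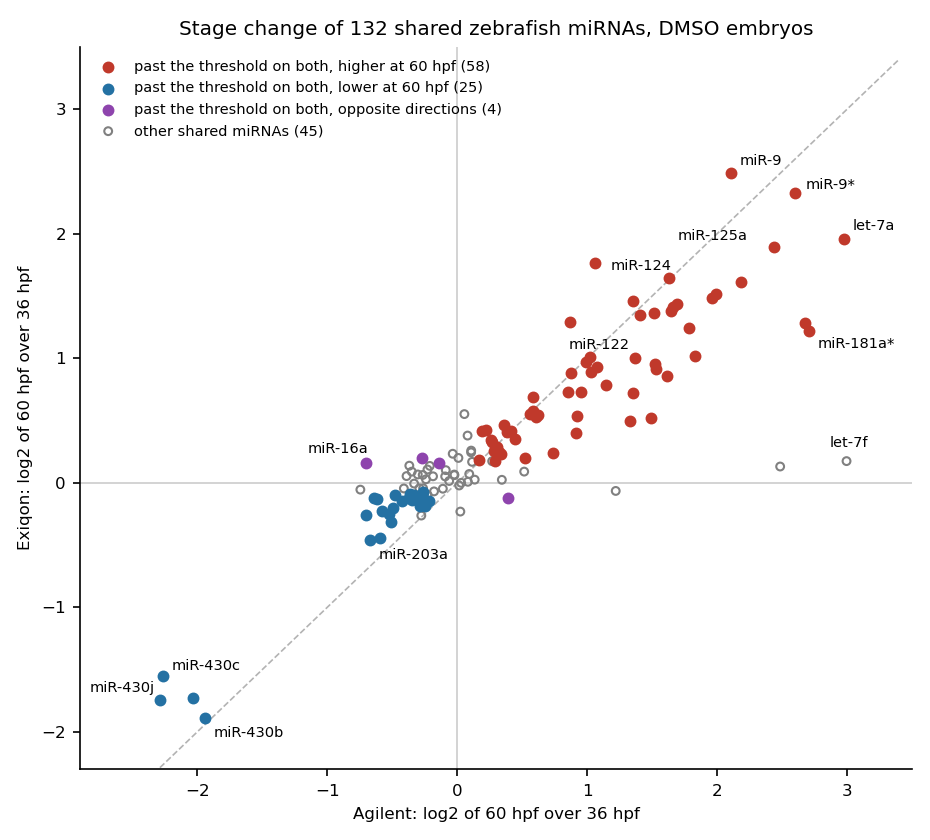
Stage change of each of the 132 shared miRNAs, as log2 of 60 hpf over 36 hpf, on Agilent (x axis) and Exiqon (y axis); the dashed line marks equal change. Red points passed as higher on both platforms (58), blue as lower on both (25) and purple in opposite directions (4). The miR-430 members stand alone at the lower left, and most red points lie below the dashed line.

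The scaling of the arrays moved the changes, and not all by the same amount, so the sign and the rank of a small change depend on it. The median change of all tested names was 0.12 on Agilent and became -0.17, -0.12 or -0.24 with the 75th percentile over all probes, quantile normalization or median scaling. On Exiqon it was 0.11 and became 0.31, -0.08 or 0.07 with median centring, loess on the zebrafish probes or the sample channel alone. Of the names past the threshold, the share that was higher was 60.2% on Agilent, and 41.6%, 42.7% or 38.6% with these other scalings in the same order. On Exiqon it was 74.7%, and 93.1% with median centring, 40.1% with loess on the zebrafish probes and 75% with the sample channel alone. Under all 4 scalings 43 Agilent names passed as higher and 39 as lower, and 59 and 6 on Exiqon. Of the shared names, 36 passed as higher and 4 as lower under all 4 scalings of both platforms, and 0 passed in opposite directions. Of the 36, 6 were above background on no Agilent array of 36 hpf. A fold given below as "at least" is a bound under the scaling of the text alone, and other scalings gave smaller changes for such names. It also presumes that each array of the brighter stage detected the probe. A direction called firm below is one that passed under all 4 scalings of the platform named. On Agilent each of the other scalings lowered the median change, so a fall meets this rule there more readily than a rise. No scaling keeps the level of the arrays itself. The 75th percentile used for Agilent was 5572 to 7753 in signal units on the DMSO arrays of 36 hpf and 8917 to 10829 on those of 60 hpf. Of the names past the threshold, 19 on Agilent and 55 on Exiqon changed sign under at least 1 scaling. For some lists the median is also given relative to the median of all tested names under each scaling, which takes out the shift of that median but not what differs between names: miR-19b, for example, lay between -0.66 and 0.11 relative to it on Agilent.

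**Figure D2:**
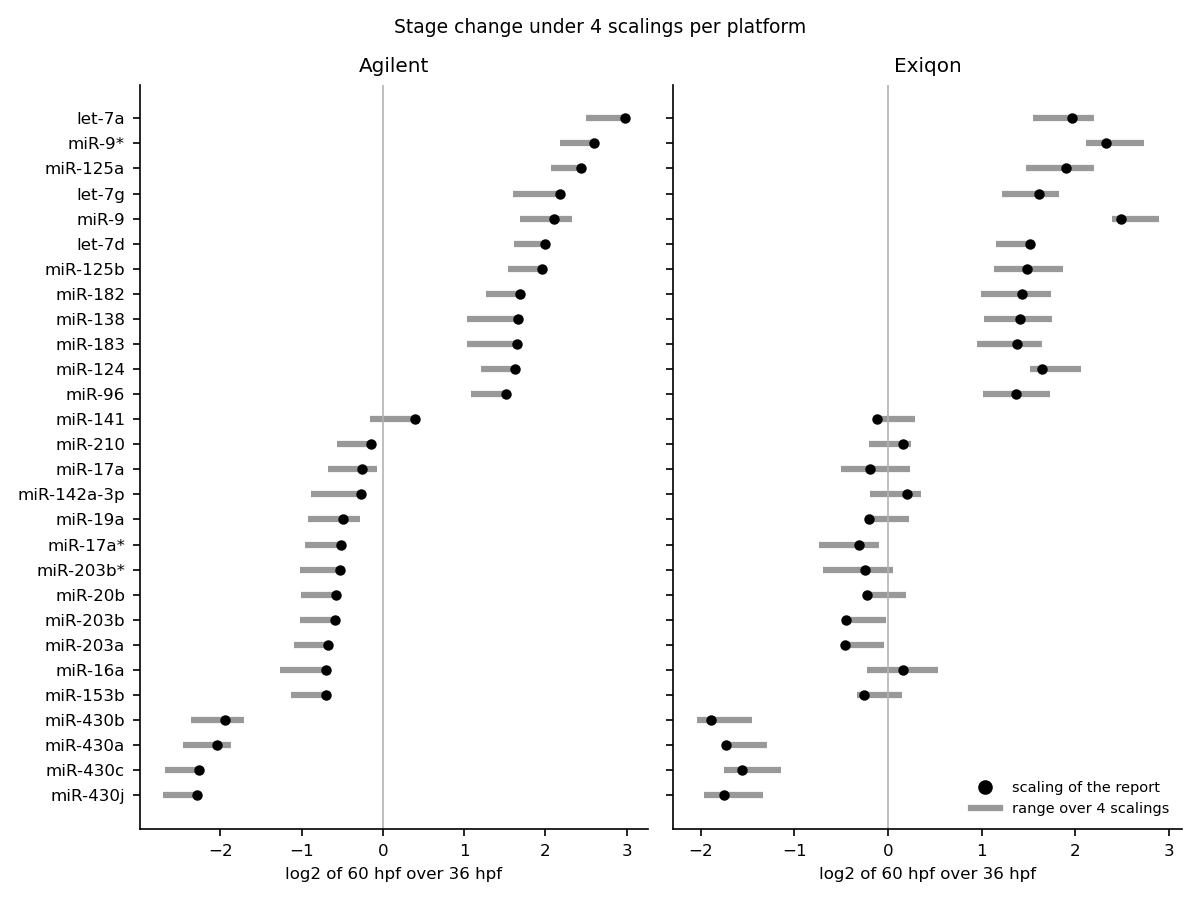
Stage change (log2 of 60 hpf over 36 hpf) of 28 miRNAs on Agilent (left) and Exiqon (right). The point is the scaling used in the text and the grey bar the range over the 4 scalings of that platform. The 12 upper names and the 4 miR-430 members keep their side of 0 in both panels, while bars of most names between them cross 0 on Exiqon and that of miR-141 also on Agilent.

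The miR-430 family fell furthest. MiR-430j had scaled signals of 0.491, 0.487 and 0.534 at 60 hpf, against 2.48, 2.46 and 2.42 at 36 hpf. The 60 hpf arrays were all far below the 36 hpf arrays, a change of -2.29 ± 0.05 (4.88-fold lower, adjusted p = 3.12e-12). MiR-430b, the brightest of the family's probes, had 2.37, 2.31 and 2.45 at 60 hpf and 10.5, 8.28 and 8.73 at 36 hpf. Its change of -1.94 ± 0.08 (3.84-fold lower, adjusted p = 5.06e-10) is open to compression, since spots were saturated on 2 of the 3 arrays of 36 hpf and on none of 60 hpf. A second, dimmer probe of miR-430b fell by 2.32. MiR-430a fell by 2.04 and miR-430c by 2.26 on the log2 scale. On Exiqon the same members had ratios of 0.428 to 0.527 at 60 hpf and 1.44 to 1.72 at 36 hpf. Their changes there were -1.89 ± 0.06 for miR-430b, -1.75 for miR-430j, -1.73 for miR-430a and -1.56 for miR-430c. MiR-430i was not tested on Agilent, where no group had its probe above background on 3 of 3 arrays. On Exiqon its ratios were 0.598, 0.602 and 0.552 at 60 hpf and 1.40, 1.38 and 1.28 at 36 hpf, a change of -1.21 ± 0.06 (adjusted p = 1.95e-10), the smallest of the family. All tested members, 4 of 4 on Agilent and 5 of 5 on Exiqon, fell firmly on each platform. Among all names, 39 of 134 on Agilent and 6 of 223 on Exiqon fell firmly. The median over the list was -2.15 on Agilent and -1.73 on Exiqon, which is 2.04 to 2.33 and 1.61 to 1.83 below the median of all names over the scalings. Signals of miR-430a, miR-430b, miR-430c and miR-430j were still detected on 3 of 3 arrays of 60 hpf.

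Among members of the let-7 family, let-7a rose by a large amount on both platforms. Let-7a had scaled signals of 0.563, 0.548 and 0.593 at 60 hpf, against 0.0600, 0.0710 and 0.0876 at 36 hpf. The change of 2.98 ± 0.13 (7.89-fold, adjusted p = 6.44e-10) was nearly the same with a second probe, at 2.96. Let-7a ratios on Exiqon were 1.48, 1.57 and 1.52 at 60 hpf, against 0.410, 0.376 and 0.391 at 36 hpf, a change of 1.96 ± 0.04 (3.89-fold). Let-7g rose by 2.18 on Agilent and 1.61 on Exiqon, and let-7c by 2.68 and 1.28, with its Agilent probe above background on 1 of 3 arrays of 36 hpf. Let-7d was not well above background on any 36 hpf Agilent array, and it was at least 3.72-fold higher at 60 hpf, with ratios on Exiqon that rose by 1.51. A second Agilent probe of let-7d rose by 0.86. Let-7e, not tested on Agilent, rose by 1.58 on Exiqon.

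Let-7b and let-7f differed between platforms. On Agilent the brighter of the let-7f probes rose by 3.00 ± 0.11 (7.98-fold, adjusted p = 2.49e-10) and the other by 1.22 ± 0.23, far less. The brighter had 0.363, 0.349 and 0.380 at 60 hpf and 0.0393, 0.0512 and 0.0470 at 36 hpf. On Exiqon let-7f was at 0.17 ± 0.09 (adjusted p = 0.0943), and its sample channel had a median of 1.6 times local background there. Let-7b rose by 1.22 ± 0.29 on Agilent, and by 0.55 with its other probe, and was at -0.07 ± 0.04 on Exiqon (adjusted p = 0.164). Its Exiqon change passed as lower with loess on the zebrafish probes, at -0.51 (adjusted p = 5.26e-08). It also did with the sample channel alone, at -0.28 (adjusted p = 0.0021), but was at 0.25 with median centring (adjusted p = 0.0908). The Agilent change of let-7b was 0.44 within slide 1 and 1.61 within slide 2. Let-7h and let-7j rose on Exiqon by 0.25 and 0.28, and the brighter let-7i probe was at 0.06 (adjusted p = 0.272), while its other probe passed at 0.14 (adjusted p = 0.0419). Of the 10 members on the Agilent array, 6 were tested and 3 were detected on all 6 DMSO arrays (let-7a, let-7f and let-7g), and these 3 rose. On Exiqon 7 of 10 rose, 5 of them firmly, with a median of 0.78, which is 0.52 to 0.68 above the median of all names over the scalings. Among all names, 47.7% of those so detected on Agilent and 48.9% on Exiqon were higher.

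Members of miR-99, miR-100 and miR-125, families whose genes often lie beside let-7 genes, rose on both platforms. The 4 members detected on all 6 DMSO arrays of Agilent rose, as did 6 of 6 on Exiqon, where 47.7% and 48.9% of names were higher. MiR-125 is the vertebrate relative of lin-4, the first miRNA of Caenorhabditis elegans. MiR-125b had scaled signals of 2.44, 2.50 and 2.51 at 60 hpf and 0.635, 0.619 and 0.662 at 36 hpf, a change of 1.96 ± 0.05 (3.89-fold, adjusted p = 3.9e-12). On Exiqon it rose by 1.48 ± 0.04. MiR-125a was not above background on any 36 hpf Agilent array and was at least 5.07-fold higher at 60 hpf, with 0.124, 0.172 and 0.134 there. A second Agilent probe of miR-125a rose by 0.79. On Exiqon miR-125a rose by 1.90 ± 0.05. MiR-125c rose by 1.35 on Agilent and 1.46 on Exiqon, and miR-99 by 1.49 and 0.52. MiR-100 rose by 0.95 on Agilent and 0.73 on Exiqon, firmly on Agilent. An Exiqon probe shared by miR-125b and miR-125c rose by 1.33, with no value on replicate 2 of 36 hpf. The Exiqon median was 1.40, and that of the 4 Agilent members was 1.42.

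Among neuronal miRNAs the strands of miR-9 moved most. MiR-9, which acts in neural progenitors and on the timing of neuron formation in zebrafish, had Exiqon ratios of 1.57, 1.55 and 1.62 at 60 hpf and 0.287, 0.276 and 0.283 at 36 hpf. Its change of 2.49 ± 0.04 (5.61-fold, adjusted p = 2.01e-15) was the largest on Exiqon. On Agilent the miR-9 probe was saturated on all 3 arrays of 60 hpf, with signals of 6.33, 5.89 and 7.15, against 1.57, 1.47 and 1.45 at 36 hpf. Under this scaling it was at least 4.31-fold higher, and with another scaling its log2 change was 1.68. The passenger strand miR-9* was not saturated. Its scaled signals were 3.78, 3.74 and 3.77 at 60 hpf and 0.555, 0.633 and 0.678 at 36 hpf, a rise of 2.60 ± 0.08 (6.07-fold), with 2.33 ± 0.04 on Exiqon.

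MiR-124, abundant in differentiated neurons, gave nearly the same change on both platforms. It had 2.54, 2.18 and 2.46 at 60 hpf and 0.779, 0.729 and 0.806 at 36 hpf on Agilent, where it rose by 1.63 ± 0.07 (3.10-fold), and on Exiqon it rose by 1.64 ± 0.03 (3.12-fold). MiR-138, abundant in the mammalian brain, rose by 1.66 on Agilent and 1.41 on Exiqon. Its other Agilent probe rose by 0.48 ± 0.15, far less. MiR-7a rose by 1.52 and 0.96, and miR-218a, known from motor neurons, by 0.88 and 0.89. MiR-218b was not above background at 36 hpf on Agilent and was at least 3.23-fold higher at 60 hpf, with a rise of 1.24 on Exiqon. MiR-137 and miR-128, tested on Exiqon alone, rose by 1.20 and 0.94.

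**Figure D3:**
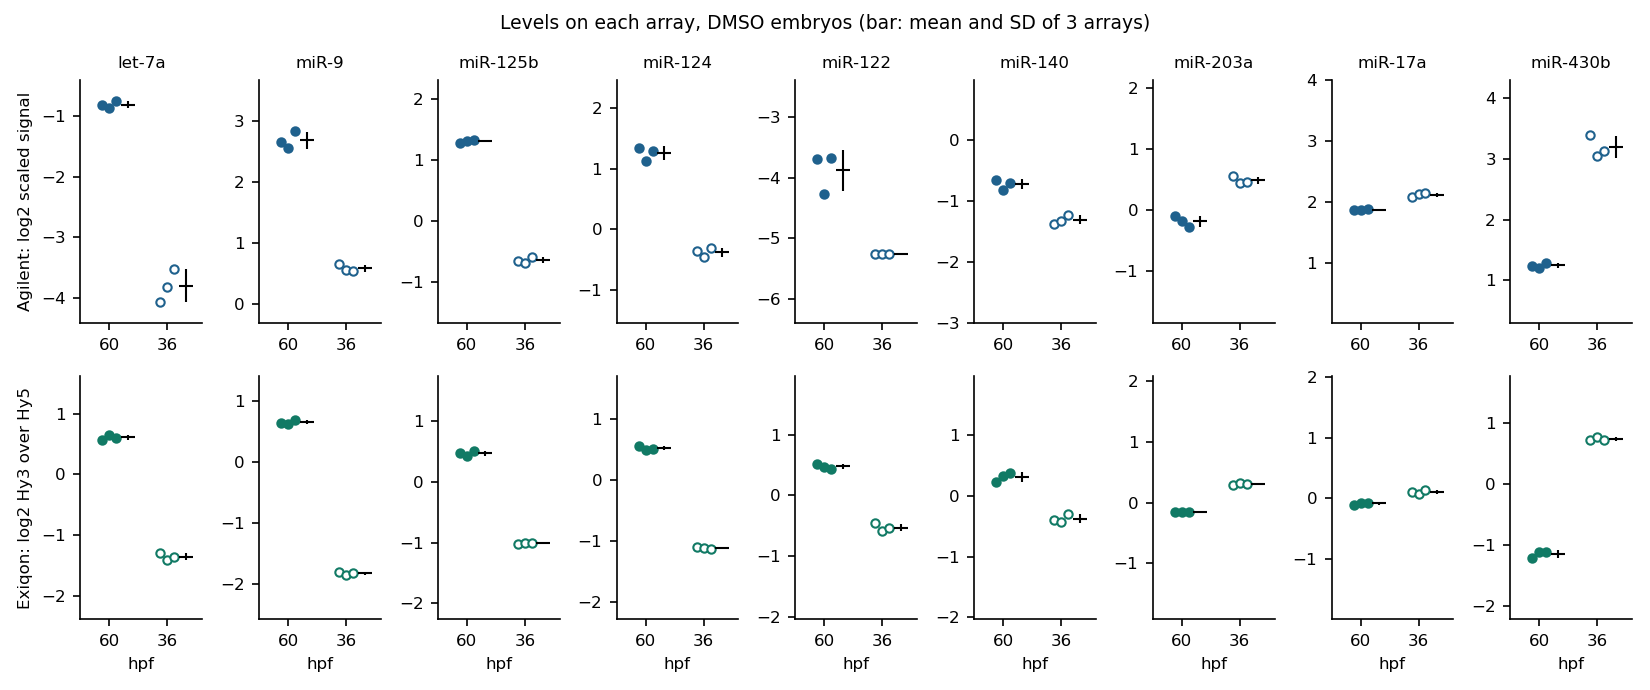
Values on each DMSO array of 60 hpf (left, filled) and 36 hpf (right, open) for 9 miRNAs, as log2 scaled signal on Agilent (top) and log2 Hy3 over Hy5 on Exiqon (bottom). The bar beside the points is the mean with SD of 3 arrays, and every panel spans 4 log2 units. No pair of groups overlaps in these panels; the last 3 miRNAs are lower at 60 hpf, with the gap of miR-17a small and its sign turned by median centring on Exiqon.

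The neuronal list was not uniform. MiR-153b fell on both platforms, on Agilent by 0.70 and on Exiqon by 0.26. Its near relative miR-153c fell by 0.18 on Agilent, where its other probe was at 0.02, whereas miR-153a rose by 0.27 and 0.33, the second without replicate 1 of 60 hpf, which gave no value. The Exiqon fall of miR-153b became 0.15 with median centring, and the Agilent rise of miR-153a turned to -0.15 under another scaling. MiR-219, known from oligodendrocytes, was at 0.02 ± 0.13 on Agilent and, without replicate 3 of 60 hpf, which gave no value, at -0.23 ± 0.10 on Exiqon, and neither passed (adjusted p = 0.866 and 0.0565). MiR-132 was at 0.10 on Exiqon (adjusted p = 0.241). Of 9 members detected on all 6 DMSO arrays of Agilent, 6 rose and 2 fell, with a median of 0.88. On Exiqon 11 of 15 rose and 1 fell, 9 of the rises firm, with a median of 0.89, which is 0.55 to 0.78 above the median of all names over the scalings. Among all names, 47.7% of those so detected on Agilent and 48.9% on Exiqon were higher.

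The 3 miRNAs of sensory cells, transcribed together and known from hair cells of the ear and photoreceptors, rose alike. MiR-96 had 1.03, 1.05 and 1.07 at 60 hpf and 0.345, 0.353 and 0.408 at 36 hpf on Agilent, a change of 1.51 ± 0.07 (2.85-fold). MiR-182 rose by 1.69 and miR-183 by 1.65. On Exiqon the rises were 1.37, 1.43 and 1.38 for miR-96, miR-182 and miR-183. All 3 were firm on both platforms, where 43 of 134 names on Agilent and 59 of 223 on Exiqon rose firmly. The passenger strand miR-182* was at least 2.91-fold higher with its brighter Agilent probe and rose by 0.86 on Exiqon. With its other Agilent probe it rose by 0.62 ± 0.08. MiR-204, found in lens and retinal pigment epithelium, rose by 0.59 on Agilent and 0.58 on Exiqon, also firmly. It was the only riser of the lens and retina list, 1 of 2 members on Agilent and 1 of 3 on Exiqon. MiR-184 was at 0.08 on Agilent and 0.01 on Exiqon (adjusted p = 0.43 and 0.892). MiR-187, tested on Exiqon alone, was at -0.05 and did not pass. Of all names, 48.5% on Agilent and 48.9% on Exiqon were higher.

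Several miRNAs of liver, gut and pancreas rose on both platforms. MiR-122, the main miRNA of hepatocytes, was at the floor of 0.0263 on all 3 Agilent arrays of 36 hpf. At 60 hpf it had 0.0774, 0.0516 and 0.0783 and was above background on 2 of 3 arrays. The ratio was 2.42-fold, which is no strict bound. Replicate 2 of 60 hpf enters it with its own signal, below the lowest detected signal of that array, 0.0989. The other Agilent probe of miR-122 rose by 1.01 ± 0.12. On Exiqon its ratios were 1.43, 1.38 and 1.36 at 60 hpf and 0.727, 0.670 and 0.686 at 36 hpf, a rise of 1.00 ± 0.04 (2.01-fold, adjusted p = 3.44e-11). MiR-192, of gut and liver epithelium, rose by 1.35 on Agilent and 0.72 on Exiqon. MiR-216a and miR-217, of pancreatic acinar cells, rose by 1.33 and 0.85 on Agilent and by 0.50 and 0.73 on Exiqon. MiR-216b rose by 0.73 and 0.24. MiR-375, of pancreatic islets, was tested on Exiqon alone and was at 0.06 ± 0.05 (adjusted p = 0.363). Of the 8 members on the Agilent array, 5 were tested and 4 were detected on all 6 DMSO arrays, and these 4 rose, with a median of 1.09. On Exiqon 6 of 7 rose, with a median of 0.59. Among all names, 47.7% of those so detected on Agilent and 48.9% on Exiqon were higher.

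Cartilage and mesenchyme miRNAs rose by about the same amount on both platforms. MiR-140, which shapes the zebrafish palate skeleton, had 0.638, 0.570 and 0.617 at 60 hpf and 0.387, 0.401 and 0.429 at 36 hpf on Agilent, a rise of 0.58 ± 0.06, with 0.69 ± 0.06 on Exiqon. MiR-199 rose by 1.02 and 1.01, and its neighbour miR-214 by 1.07 and 0.93. MiR-143, of smooth muscle, rose by 0.86 ± 0.13 on Agilent, where its probe was detected on 2 of 3 arrays of 60 hpf and 1 of 3 of 36 hpf, and by 1.29 ± 0.05 on Exiqon. MiR-126, of blood vessel endothelium, was at -0.02 ± 0.05 on Agilent and 0.06 ± 0.03 on Exiqon, and neither passed (adjusted p = 0.676 and 0.125). MiR-451, of red blood cells, had 0.931, 0.894 and 0.906 at 60 hpf and 0.586, 0.608 and 0.601 at 36 hpf, a rise of 0.60 ± 0.05 on Agilent and 0.53 ± 0.04 on Exiqon. Its cluster partner miR-144 rose by 0.36 ± 0.14 and 0.47 ± 0.04. The Agilent groups of miR-144 overlapped, with replicate 2 of 60 hpf at 0.0839 among the 36 hpf values, and its sign there turned under another scaling.

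Heart and skeletal muscle miRNAs gave no common direction. On Agilent 2 of 6 rose and 1 fell, and on Exiqon 2 of 7 rose and 2 fell, with medians of 0.11 and 0.02 that did not stand apart from the 0.12 and 0.11 of all names. Of all names, 48.5% were higher and 32.1% lower on Agilent, and 48.9% and 16.6% on Exiqon. MiR-1, the main miRNA of striated muscle, rose by 0.34 ± 0.07 on Agilent. Its Exiqon probes disagreed: the brighter was at 0.02 ± 0.03 (adjusted p = 0.5) and the other rose by 0.55 (adjusted p = 8.91e-08). MiR-206, of skeletal muscle, fell by 0.26 on Exiqon and was at -0.28 ± 0.13 on Agilent (adjusted p = 0.079). MiR-133c fell by 0.62 on Agilent and by 0.13 on Exiqon. No direction of these on Exiqon was firm, and those of miR-1 and miR-206 on Agilent turned under another scaling.

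**Figure D4:**
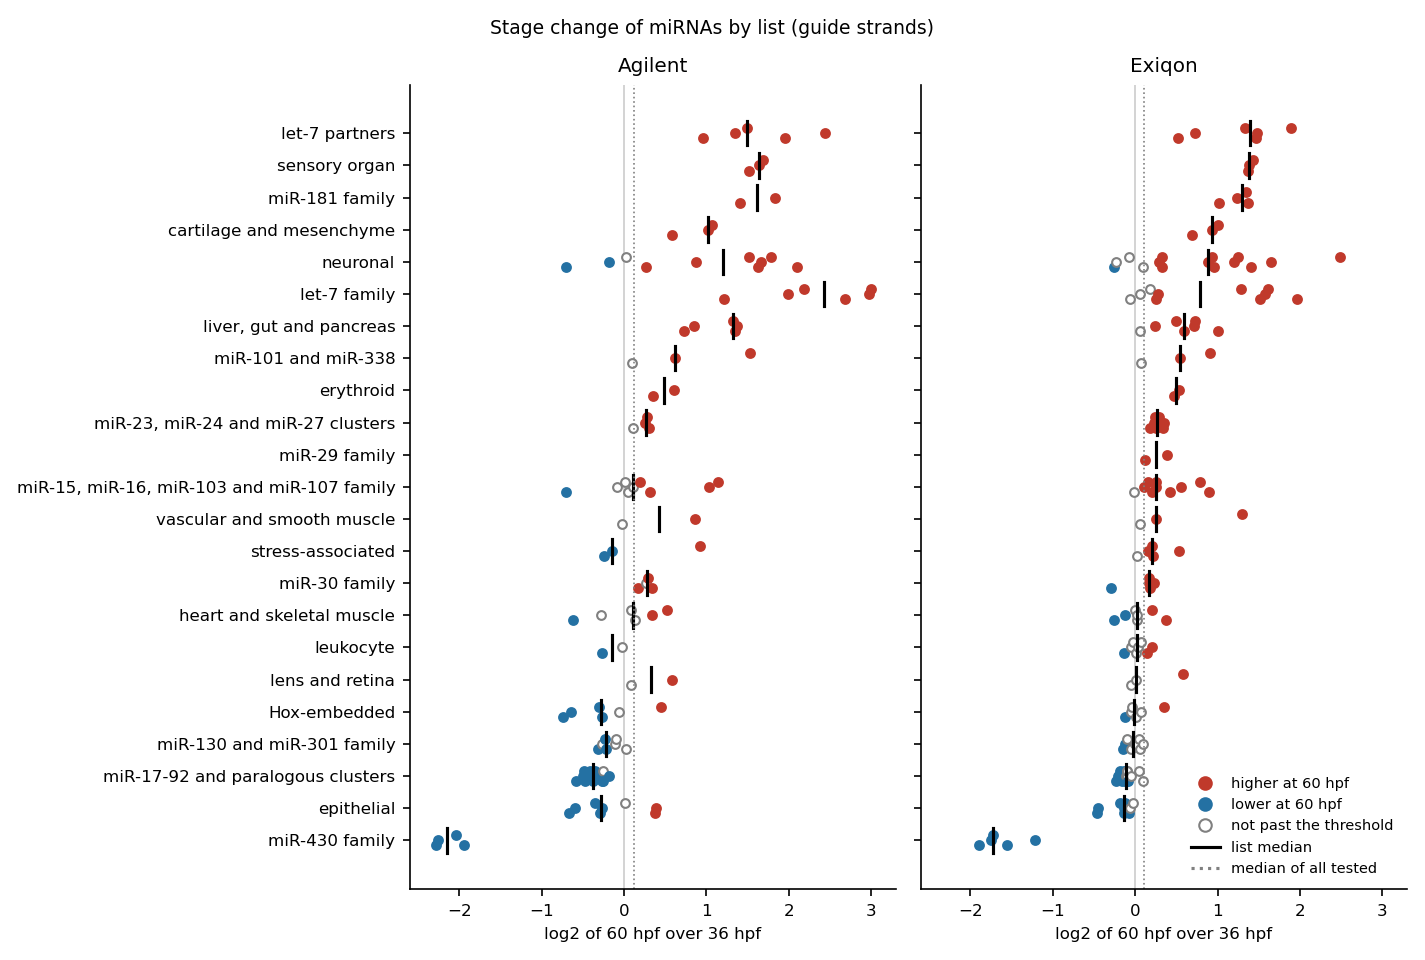
Stage change (log2 of 60 hpf over 36 hpf) of the guide strands in each list on Agilent (left) and Exiqon (right). Red points passed as higher at 60 hpf, blue as lower, and open points did not pass; the black bar is the list's median and the dotted line the median of all tested names, 0.12 and 0.11. Points on Agilent include members that were not above background on every array. The miR-430 family lies apart at the bottom alone, and many of the points near 0 change sign under another scaling.

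Of the skin miRNAs, the members of miR-203 fell on both platforms and miR-205 did not pass on either. MiR-203a, which restrains growth of the epidermis, had 0.934, 0.883 and 0.826 at 60 hpf and 1.46, 1.36 and 1.38 at 36 hpf, a change of -0.67 ± 0.08 (1.59-fold lower, adjusted p = 6.46e-06). Its Exiqon ratios were 0.900, 0.897 and 0.894 at 60 hpf and 1.22, 1.26 and 1.23 at 36 hpf, a change of -0.46 ± 0.04. MiR-203b fell by 0.59 and by 0.45, and its passenger strand by 0.53 and by 0.25. The Agilent call of the passenger strand was lost with normexp background, at -0.24 (adjusted p = 0.105), and the Exiqon call of miR-203b with the sample channel alone, at -0.36 (adjusted p = 0.168). With median centring on Exiqon the 2 guide strands were at -0.04 and -0.02 and did not pass (adjusted p = 0.813 and 0.921), while on Agilent both were firm. MiR-200a, miR-200b and miR-429, of epithelia, fell by 0.27 to 0.35 on Agilent and by 0.07 to 0.18 on Exiqon, where their signs turned under another scaling. In contrast, miR-141 and miR-200c, from a different cluster of the same family, were higher on Agilent at 0.39 and 0.37, with signs that turned under another scaling. MiR-205 was at 0.01 and -0.02 (adjusted p = 0.78 and 0.653). Of all names, 32.1% were lower on Agilent and 16.6% on Exiqon. The epithelial list had 5 of 8 members lower and 2 higher on Agilent, and 7 of 9 names lower on Exiqon. The Exiqon names include the probe shared by miR-141 and miR-200a and that shared by miR-200b and miR-200c. The median of the epithelial list was -0.28 and -0.13, which is 0.24 to 0.46 and 0.03 to 0.24 below the median of all names over the scalings.

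The miR-17-92 cluster and its relatives, which promote cell division, mostly fell on Agilent, by small amounts, with no firm change on Exiqon. Of 14 members tested on Agilent, 13 were detected on all 6 DMSO arrays, and these 13 fell, 10 of them firmly. Of 16 on Exiqon 9 fell and 0 rose, with 0 firm. Among all names, 33.9% of those so detected on Agilent and 16.6% on Exiqon were lower. MiR-20b had 0.324, 0.252 and 0.325 at 60 hpf and 0.525, 0.420 and 0.403 at 36 hpf, a change of -0.58 ± 0.12, with -0.23 ± 0.04 on Exiqon. MiR-19a fell by 0.49 and by 0.20, and miR-17a by 0.25 and by 0.19, where its other Exiqon probe was at -0.10 (adjusted p = 0.0579). On Exiqon miR-25 and miR-93 were at 0.05 and 0.09 and did not pass. MiR-18b and miR-92a fell by 0.48 and by 0.41 on Agilent and were at -0.11 and -0.05 on Exiqon (adjusted p = 0.226 and 0.394). MiR-19b, counted among the 13, was saturated on all 3 Agilent arrays of 60 hpf and on 2 of 3 of 36 hpf. No fold is therefore given and its Agilent fall is uncertain, with a change of -0.0085 under another scaling. The median over the list was -0.37 on Agilent and -0.11 on Exiqon, and it stayed below the median of all names under each scaling, by 0.34 to 0.55 and by 0.05 to 0.21. The Exiqon sign itself turned for all 16 members under another scaling.

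Of the 5 miRNAs within Hox gene clusters that were detected on all 6 DMSO arrays of Agilent, 3 fell and 1 rose. On Exiqon 1 of 6 fell and 1 rose. Of all names, 33.9% so detected on Agilent and 16.6% on Exiqon were lower, and 47.7% and 48.9% higher. MiR-196b had 0.0341, 0.0263 and 0.0310 at 60 hpf and 0.0645, 0.0474 and 0.0428 at 36 hpf, a change of -0.75 ± 0.14 on Agilent, near the floor, and it was at -0.06 ± 0.06 on Exiqon (adjusted p = 0.404). Its other Agilent probe was at -0.13 ± 0.05 (adjusted p = 0.0408). MiR-196a fell on both platforms, by 0.64 and by 0.13. MiR-10d alone rose, by 0.45 and 0.35, and neither direction was firm. In the miR-130 and miR-301 family 3 of the 5 members detected on all 6 DMSO arrays of Agilent fell. On Exiqon 2 of 8 fell, with the same 33.9% and 16.6% of names lower. In the miR-23, miR-24 and miR-27 clusters 2 of the 3 members detected on all 6 DMSO arrays of Agilent rose, with a median of 0.28. On Exiqon 8 of 8 rose, with a median of 0.27, beside 47.7% and 48.9% of names higher. On both platforms 0 of these calls were firm.

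MiR-103 and miR-107, which differ from each other by few bases and lie within pantothenate kinase genes in vertebrates, rose firmly on both platforms. MiR-103 had 0.359, 0.347 and 0.378 at 60 hpf and 0.144, 0.164 and 0.185 at 36 hpf, a rise of 1.14 ± 0.09, with 0.79 ± 0.03 on Exiqon. MiR-107 rose by 1.03 and 0.89. Their relatives in the miR-15 and miR-16 group lay between -0.70 and 0.32 on Agilent and between -0.01 and 0.55 on Exiqon, and no rise among these relatives was firm. With miR-103 and miR-107 included, 4 of the 7 members detected on all 6 DMSO arrays of Agilent rose. On Exiqon 9 of 10 rose, where 47.7% and 48.9% of names were higher. All names of the miR-181 family that were tested rose firmly, 2 of 2 on Agilent (1.41 and 1.83) and 4 of 4 on Exiqon (1.02 to 1.37). The Exiqon names include the probe shared by miR-181b and miR-181c beside the probes of each. Of all names, 43 of 134 on Agilent and 59 of 223 on Exiqon rose firmly. MiR-338 rose by 1.53 and 0.91. Of the stress-associated miRNAs, miR-34 rose by 0.92 and 0.54, and miR-21 fell by 0.24 on Agilent but was at 0.03 on Exiqon (adjusted p = 0.531). Of leukocyte miRNAs, 1 was detected on all 6 DMSO arrays of Agilent, at -0.02, and did not pass. Of 8 on Exiqon 2 rose and 1 fell, all by at most 0.20, beside 48.9% and 16.6% of all names.

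The 4 miRNAs that passed in opposite directions had small changes on Exiqon. MiR-16a had 0.0593, 0.0334 and 0.0544 at 60 hpf and 0.0882, 0.0729 and 0.0718 at 36 hpf on Agilent, a change of -0.70 ± 0.18, and Exiqon ratios gave 0.16 ± 0.03. MiR-142a-3p, of leukocytes, was at -0.27 on Agilent and 0.20 on Exiqon, and miR-210, which responds to low oxygen, at -0.14 and 0.16. MiR-141 was at 0.39 on Agilent and -0.12 on Exiqon. Each of the 4 changed sign under at least 1 scaling of Exiqon, and miR-141 also on Agilent.

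Some changes were past the threshold on 1 platform alone. MiR-129* rose by 2.49 ± 0.08 on Agilent, with 0.213, 0.273 and 0.225 at 60 hpf and 0.0412, 0.0405 and 0.0447 at 36 hpf. On Exiqon it was at 0.13 ± 0.07 (adjusted p = 0.132), where its sample channel had a median of 1.8 times local background. MiR-738 rose by 0.52 and miR-456 fell by 0.39 on Agilent alone. MiR-135c passed on both, at least 1.95-fold higher on Agilent and higher by 1.77 on Exiqon. On Exiqon, names not tested on Agilent included miR-190b and miR-181b, which rose by 1.26 and 1.37. MiR-733 fell by 0.70, miR-202, known from the gonads, by 0.47 and miR-739 by 0.34. Of these 3, miR-202 was firm.

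Where both strands of a hairpin were tested they mostly moved together. MiR-181a* rose by 2.71 ± 0.06 on Agilent (6.54-fold), with 0.350, 0.353 and 0.335 at 60 hpf and 0.0498, 0.0521 and 0.0569 at 36 hpf, and its guide strand miR-181a rose by 1.83 ± 0.06. On Exiqon the strands rose by 1.22 and 1.02. MiR-133a rose by 0.52 while miR-133a* was at -0.23 ± 0.14 (adjusted p = 0.146) on Agilent, and on Exiqon they were at 0.20 and 0.11. The other Agilent probe of miR-133a* fell by 0.69 (adjusted p = 0.0232). Under the other Agilent scalings miR-133a* passed as lower, at -0.56 to -0.65. On Exiqon it passed as higher with median centring, at 0.37, and as lower with loess on the zebrafish probes, at -0.32. The difference between strands was not tested. MiR-17a* fell by 0.51 and by 0.31, near the Agilent floor at 60 hpf.

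Genomic neighbours did not pass in opposite directions. In danRer5 coordinates, which the array files list, 124 of the tested zebrafish names have a site on a numbered chromosome. Sites no more than 20000 bases apart from the next form 30 distinct sets of names from more than 1 hairpin, which hold 69 names. In 14 sets every name rose on Agilent, in 5 every name fell, in 8 only some passed and in 3 none did. These counts are a description, to be read beside the 48.5% of all names that rose and the 32.1% that fell. They were not limited to names detected on every DMSO array. In the set of let-7d and miR-125a, neither name was above background on any DMSO array of the earlier stage. Such a set could hardly be counted as falling. Some names, let-7a among them, belong to more than 1 set, so the sets are not independent of each other. In 0 sets did names pass in both directions. The Agilent probes of miR-430a, miR-430b and miR-430c match 30 sites, 10 each, between 34354028 and 34364465 on chromosome 4. The set of miR-183, miR-96 and miR-182 spans 14884996 to 14886141 on chromosome 4, with changes from 1.51 to 1.69. Let-7a lies with miR-100 and miR-125b on chromosome 5, from 28066612 to 28075248, and with let-7f on chromosome 11, from 27394460 to 27394685. All 7 tested names of the miR-17-92 cluster on chromosome 8, from 45337794 to 45338621, fell, from -0.51 to -0.25. The fall of miR-19b among them is uncertain, since its probe was saturated. The rise of let-7a by 2.98 and that of miR-100 by 0.95 show how far names in 1 set can differ in size. A probe that matches several loci, as that of let-7a does, measures their sum.

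In TCDD embryos most calls had the same direction: of the calls in DMSO embryos, 101 of 108 on Agilent and 133 of 146 on Exiqon also passed there in the same direction, where 80.6% and 68.6% of all names passed. The Exiqon TCDD arrays of both stages were of the first scan but of image analysis days 1 and 2. All Exiqon DMSO arrays were of day 1. What the scan or the day did was not tested. On Agilent 107 of the 108 kept their sign. On Exiqon 142 of the 146 did, and 1, miR-146a, passed in opposite directions, at 0.14 in TCDD embryos and -0.13 in DMSO embryos. On Exiqon the change in TCDD embryos was 2.03 for let-7a, 2.52 for miR-9 and -2.00 for miR-430b, against 1.96, 2.49 and -1.89 in DMSO embryos. The difference between the stage changes of TCDD and DMSO embryos passed for 1.49% of names on Agilent and 2.69% on Exiqon.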

How the data were processed

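Total RNA of whole embryos was profiled. For Agilent the authors deposited intensity values, which are background-subtracted spot signals of Agilent Feature Extraction 9.5, per the submitters' processing notes and the file headers, with no scaling between arrays. The Exiqon intensity values deposited by the authors are mean spot and local background signals of each channel from image analysis version 8.0.1, per the file headers. The deposited Exiqon value table holds log2 ratios by its values; the sources used here do not give its normalization. Spot flags and quality marks (other values) are the programs', per the file headers. The deposited Agilent value table equals the processed signal.

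Agilent spots marked as outliers were left out. Arrays were scaled through division of the signals by the 75th percentile of 186 probes that all 12 arrays detected. Values were floored at 0.0263 (log2 -5.25) and averaged as log2 over the 5 to 10 spots of a probe. Detection required a share of 0.5 or more of a probe's spots to be well above background. A miRNA took its brightest probe and was tested where 1 or more of the 4 groups had it detected on 3 of 3 arrays. That left 134 of 231 names, 133 of them zebrafish and 1, fru-miR-184, named for another fish. Where a probe was not above background, or saturated, on every array of a stage, "at least" sets the brighter stage's mean against the dimmer stage's mean, where every array enters with its lowest detected signal or that of the probe, whichever is higher. The brighter stage's mean takes all its arrays, detected or not. The ratio is therefore a bound only where each of them detected the probe, and only under the scaling of the text. MiR-206 had no usable spot on 1 TCDD array of 36 hpf, which its fit drops. Of 113 names with several tested probes, 7 had probes of differing sign, and 0 passed in opposite directions. In the Exiqon files, 1 per channel, the sample is in Hy3 and the reference in Hy5, per the labels; the Hy3 file was taken as the one with the brighter Hy3 landmark spots. Flagged spots were left out, background was corrected by normexp (offset 50), and arrays were normalized by loess. A probe's value is the mean of its 4 spots. A name with several probes took the brightest. Of 27 such Exiqon names, 7 had probes on both sides of the threshold, 4 had probes of differing sign and 0 had probes past the threshold in opposite directions. A probe counted as above background when its sample channel exceeded local background by 2 SDs in at least 0.5 of its spots.

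On each platform 1 model of 4 group means over 12 arrays was fitted with limma 3.58.1 in R 4.3.3, checked on simulated data, and 60 minus 36 hpf in DMSO embryos was tested. With 3 arrays a group, exact permutation gives no p under 0.1 and was not used. Slide 1 of Agilent held replicate 1 of each group and slide 2 the others. Coordinates are those the array files list for danRer5. Figures used Python 3.11.15 with pandas 2.3.3 and matplotlib 3.10.9.

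Named miRNAs were the 12 largest shared changes each way by the smaller of both platforms' values, all opposite calls, the 4 largest each way past the threshold on 1 platform, the 6 largest bounded changes, the 4 strand pairs that differed most, and members of lists. The comparison, its members and the lists were chosen with earlier results of these data known. Other scalings, filters, probe choices, blocks, single arrays left out and the deposited tables were tried as alternatives.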

Additional observations from a re-analysis of the deposited data

Results flagged for a closer look

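The stage change was also set against that of embryos given TCDD, by the interaction term of the limma model, which passed for 2 of 134 names on Agilent (1.49%) and 6 of 223 on Exiqon (2.69%). On Agilent miR-181a* rose by 2.28 in TCDD embryos and 2.71 in DMSO embryos, a difference of -0.43 (adjusted p = 0.0366). The red blood cell miRNA miR-451 was at 0.24 in TCDD embryos and 0.60 in DMSO embryos, a difference of -0.37 (adjusted p = 0.0366). On Exiqon the differences, TCDD minus DMSO, were 0.21 for miR-101a (0.75 and 0.54, adjusted p = 0.0484), 0.27 for miR-146a (0.14 and -0.13, adjusted p = 0.0484) and 0.28 for miR-23a (0.54 and 0.26, adjusted p = 0.0136). The other miR-101a probe was at -0.02 in the DMSO comparison (adjusted p = 0.748). The differences were 0.25 for miR-23b (0.53 and 0.29, adjusted p = 0.0149), 0.22 for miR-24 (0.47 and 0.24, adjusted p = 0.0484) and 0.30 for miR-27e (0.58 and 0.28, adjusted p = 0.0316). No name passed this comparison on both platforms, and miR-146a and miR-27e were not tested on Agilent. The 36 hpf DMSO arrays of Exiqon were of a scan of their own, so scan and this difference cannot be told apart there.

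Of the Exiqon probes that carry no zebrafish miRNA name, 249 of 1398 tested passed the stage comparison (17.8%), 86 higher and 163 lower at 60 hpf, 18 of them by over 1 log2 unit. They enter no comparison above, and what they bind was not tested.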

How the results depend on the processing

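The direction of small changes depended on the scaling, and large ones kept theirs. The lower count on Agilent was 66 with the 75th percentile over all probes and 70 with median scaling, and on Exiqon 9 with median centring and 97 with loess on the zebrafish probes, where 65 were higher. Opposite calls between platforms numbered 11, 14 and 14 with the 75th percentile over all probes, quantile normalization and median scaling of Agilent, 13, 7 and 1 with median centring, zebrafish loess and the sample channel alone of Exiqon, and 2 with Agilent probes detected on all 6 DMSO arrays. A limit of 1 log2 unit left 37 calls on Agilent (33 higher, 4 lower) and 33 on Exiqon (28 and 5), with 34 or 26 calls in the same direction and 0 opposite. Without 1 replicate, Agilent calls numbered 98 to 107 (58 to 66 higher, 40 to 44 lower), Exiqon calls 139 to 144 (105 to 108 and 31 to 36), shared calls 75 to 83 and opposite ones 3 to 5. On Agilent miR-141 was at -0.15 and miR-738 at -0.031 with quantile normalization, and miR-141 at -0.033 with median scaling. With median centring on Exiqon, let-7b was at 0.25, miR-129* at -0.027, miR-141 at 0.29, miR-153b at 0.15, miR-17a at 0.24, miR-18b at 0.30, miR-196b at 0.045, miR-19a at 0.22, miR-203b* at 0.056, miR-20b at 0.19, miR-738 at -0.041, miR-739 at 0.0050 and miR-92a at 0.17. With zebrafish loess, miR-129* was at -0.037, miR-133a at -0.022, miR-133a* at -0.32, miR-142a-3p at -0.19, miR-16a at -0.22, miR-210 at -0.20, miR-456 at -0.32 and miR-738 at -0.10. With the sample channel alone, miR-133a was at -0.20, miR-16a at -0.16, miR-18b at 0.056 and miR-92a at 0.067, and the mean over probes put miR-92a at 0.0073. The causes were not tested. Of the named miRNAs, 36 of 44 on Agilent and 28 of 52 on Exiqon kept direction and side of the threshold under all alternatives. Other calls lost were, on Agilent, miR-142a-3p with normexp background, miR-141 with the 75th percentile over all probes, miR-133a and miR-17a with quantile normalization, and miR-133a and miR-738 with median scaling. On Exiqon they were miR-17a*, miR-203a, miR-203b and miR-733 with median centring, and miR-141, miR-142a-3p, miR-153b, miR-19a, miR-20b, miR-210 and miR-733 with the sample channel alone, and miR-142a-3p with the authors' deposited table. Calls gained on Exiqon included falls of let-7b, miR-18b, miR-196b and miR-92a with zebrafish loess and of let-7b with the sample channel alone. The call of miR-210 on Agilent was lost without replicate 2 of 60 hpf (adjusted p = 0.107) or of 36 hpf (adjusted p = 0.0528), with the mean over probes and with only the 6 DMSO arrays, and that of miR-739 on Exiqon without replicate 2 of 60 hpf (adjusted p = 0.0504). Deviations of same-numbered arrays correlated at 0.0317 to 0.216 on Agilent and 0.0131 to 0.128 on Exiqon, so the numbers were not taken to pair samples; with the replicate block 110 and 145 names passed. The scan as a block was not run, since scan and stage coincide on the Exiqon DMSO arrays. Signal near background limits dim probes on both platforms.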
